A study of Mus musculus with 36 samples.

Results

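RNA levels of 10 genes that sense or degrade extracellular purine and pyrimidine nucleotides were followed in hippocampal slices of mice, out of 55421 genes in the deposited table. The genes were chosen by name: the nucleotide receptors P2ry12, P2ry13, P2ry14 and P2ry6, the ATP-gated channels P2rx4 and P2rx7, the adenosine receptors Adora1, Adora2a and Adora3, and the ectonucleotidase Entpd1. Each symbol matched 1 mouse Ensembl identifier, and all 10 passed the filter on low counts. The wild-type mice were C57BL/6 animals, and the T41B mice were of Line 41, an amyloid model in which a Thy1 cassette, a neuronal expression cassette, carries human APP with the London and Swedish mutations. Both genotypes were dosed by oral gavage for 3 months, between 13 and 16 months of age, with vehicle or with BD10-2, which partially activates TrkB and TrkC, receptors for neurotrophins. Slices of the right hippocampus then received theta-burst stimulation, given 3 times as 10 bursts, each of 4 stimuli delivered at 100 Hz, with 200 ms between bursts, or a sham procedure of equal duration, and were frozen at once. All groups therefore went through dissection and slicing, and no unsliced tissue was analysed here. Sham and stimulated groups each held 4 wild-type vehicle, 3 wild-type BD10-2, 4 T41B vehicle and 5 T41B BD10-2 mice, and 14 of the 18 mice gave both kinds of slice.

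Cells release ATP and other nucleotides during activity and damage, and enzymes on cell surfaces break them down in steps to adenosine. In the brain, resting microglia carry the ADP receptors P2RY12 and P2RY13, which are known for steering their processes towards nucleotide sources, while the UDP receptor P2RY6 is known for promoting phagocytosis. Adenosine acts through the receptor encoded by Adora1, which is abundant on hippocampal neurons and inhibits transmitter release, and through those encoded by Adora2a and Adora3, which are also found on immune cells.

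Levels are given as CPM, a gene's estimated read count scaled to a common library total with TMM factors. A change is a fitted log2 fold change with its standard error (SE), and a gene was called when its edgeR adjusted p, corrected over all 19478 genes tested, was under 0.05. Library totals ran from 11597554 to 28125842 counts with a median of 18082414, so members at about 1 CPM rest on few counts (0 to 53 per sample for P2ry14, 5 to 208 for Adora3). Thy1, which the transgene cassette contains, lay at 253 to 403 CPM in the 16 wild-type libraries and at 918 to 2500 CPM in the 20 T41B libraries, while App, whose mouse sequence differs from the human transgene's, was not called between genotypes in sham vehicle slices (1140 ± 29.1 CPM in T41B and 1240 ± 128 CPM in wild-type mice, SD, n = 4 each). In the library of lowest Thy1, 1 of 2 stimulated libraries of T41B mouse 1592, Adora3 was 0.392 CPM and P2ry6 8.76 CPM, against 1.9 and 17.1 CPM in the other. Thy1 was 918 and 1940 CPM in these 2 libraries, which carry equal labels and were added. Ttr, which choroid plexus makes in large amounts, exceeded 50 CPM in the stimulated slices of wild-type mice 1509 and 1513 and in both slices of T41B mice 1551 and 1553. Mice 1509 and 1513 are the only ones with batch label E, and mice 1551 and 1553 the only ones with label G. Leaving out the samples above 50 CPM of Ttr removes label G and makes vehicle groups smaller. Ttr, batch and group size therefore cannot be told apart in those fits.

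The markers of hippocampal neurons summed to 4530 to 6870 CPM across all samples. No other brain region was compared, so these levels do not test the hippocampal label. The 12 markers of microglia and macrophages summed to a median of 389 CPM in wild-type and 1180 CPM in T41B sham vehicle slices. Monocyte and neutrophil markers were near zero, at 0.126 to 1.56 CPM for 10 genes together, and Ly6g, Chil3 and Camp were at 0 in the stimulated vehicle groups of both genotypes. RNA came from whole slices, so fewer cells of a type and less RNA per cell cannot be told apart.

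P2ry12, P2ry13 and P2ry14 are neighbours on chromosome 3, and all lie on the minus strand inside Med12l, a mediator subunit gene of the plus strand at chr3:59005825-59318682. In GENCODE M21 on GRCm38, P2ry12 spans chr3:59216272-59262871, P2ry13 spans chr3:59207892-59210882 and P2ry14 spans chr3:59113855-59153618. The exons of P2ry12 share 9 bases with exons of Med12l on the other strand, and those of P2ry13 and P2ry14 share 0. The library kit keeps strand, but the strand setting of the counting is not given in the sources used here, so reads of these genes and of Med12l introns could in part be mixed. Med12l itself fell by 0.25 (edgeR adjusted p = 0.0215) and 0.30 (0.0025) on the log2 scale with stimulation in T41B vehicle and BD10-2 slices. It was not called in the wild-type ones (-0.18 and -0.05).

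Promoter sequences of RefSeq (GRCm38.p6) were matched by symbol for 8 of the 10 genes and are shown for neighbours P2ry12 and P2ry13, which fell together with stimulation, and for Adora3, which had the largest genotype difference of the 10. Each line gives the 250 bases before a RefSeq start, 5′ to 3′ on the gene's strand, at chr3:59262986-59263235 (minus strand), chr3:59210883-59211132 (minus strand) and chr3:105904171-105904420 (plus strand). Capitals mark a match, on either strand, to the letters of a searched motif.
P2ry12: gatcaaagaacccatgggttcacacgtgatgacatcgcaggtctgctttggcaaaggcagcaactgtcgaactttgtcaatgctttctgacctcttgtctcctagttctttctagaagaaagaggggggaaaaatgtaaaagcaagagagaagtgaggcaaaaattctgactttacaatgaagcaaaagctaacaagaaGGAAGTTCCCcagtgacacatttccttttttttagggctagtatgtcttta
P2ry13: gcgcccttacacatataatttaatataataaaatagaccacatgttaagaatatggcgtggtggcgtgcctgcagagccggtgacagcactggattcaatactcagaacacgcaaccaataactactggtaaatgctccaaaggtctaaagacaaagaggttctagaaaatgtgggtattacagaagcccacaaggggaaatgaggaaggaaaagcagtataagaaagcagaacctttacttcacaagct
Adora3: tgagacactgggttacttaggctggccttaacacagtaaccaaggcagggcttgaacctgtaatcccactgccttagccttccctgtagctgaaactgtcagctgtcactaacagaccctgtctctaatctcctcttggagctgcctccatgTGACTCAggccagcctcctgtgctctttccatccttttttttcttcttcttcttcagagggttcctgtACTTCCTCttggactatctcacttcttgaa
The motifs searched were GAGGAAGT for PU.1, the myeloid lineage factor, TGANTCA for AP-1, TGACGTCA for CRE, and the NF-kappaB consensus. Of 32851 mouse promoters of this length, 2.44% held the PU.1 letters, 6.75% the AP-1 letters, 1.55% the CRE letters and 7.25% the NF-kappaB consensus. The P2ry12 window held an NF-kappaB match 51 bases before the start, and the P2ry13 window held no match to the 4 motifs. The Adora3 window held a PU.1 match 30 bases and an AP-1 match 98 bases before the start. Among the windows not shown, AP-1 matches lay in 2 of 4 for P2ry14, 1 of 2 for Adora1 and 1 of 2 for P2rx7, and those of P2rx4 and Entpd1 held none of the 4 motifs. No match overlapped another, and part of the P2ry12 window is also an exon of Med12l on the other strand.

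When levels were divided by exon length to compare genes, Adora1 was highest at 35.8 CPM per kb over all samples, followed by P2ry12 at 5.96 CPM per kb. Entpd1 (2.64), P2ry13 (2.26), P2ry6 (2.21) and P2rx7 (2.11 CPM per kb) lay close together, and their order changed with stimulation. P2rx4 followed at 1.4, then Adora3 at 0.606 and Adora2a at 0.566 CPM per kb. P2ry14 was lowest at 0.0569 CPM per kb, over an exon length of 11.06 kb that includes a long retained-intron transcript. In wild-type sham vehicle slices, P2ry12 stood at 7.22 and P2ry6 at 0.47 CPM per kb, whereas in stimulated T41B BD10-2 slices P2ry12 stood at 2.99 and P2ry6 at 5.77 CPM per kb.

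**Figure D1:**
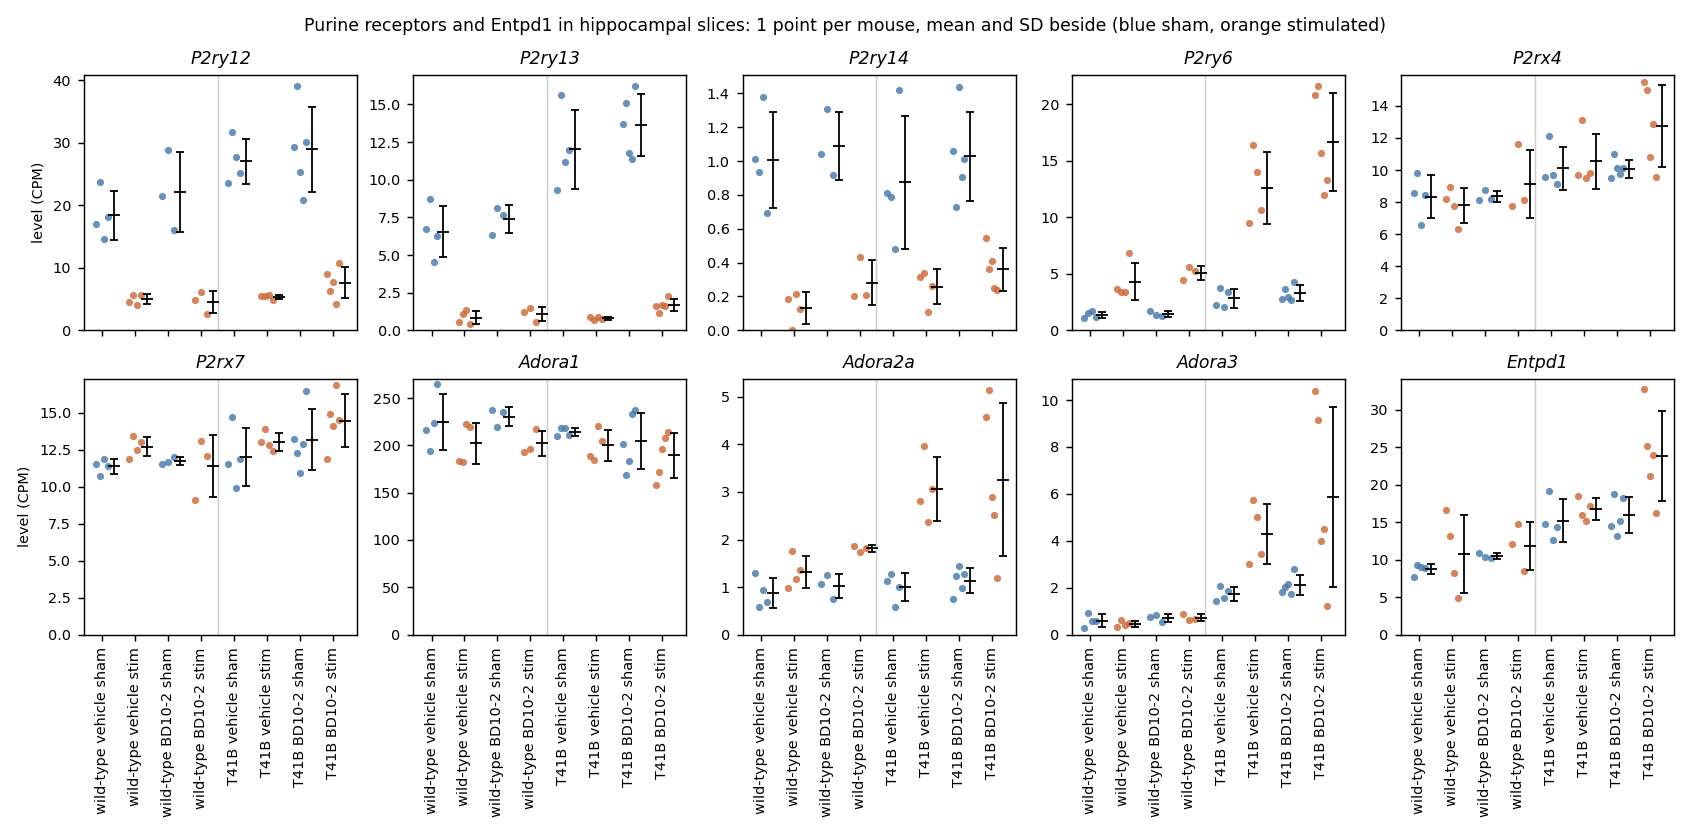
Level of each of the 10 genes in CPM (vertical axes from 0, 1 scale per gene) in the 8 groups of slices, with 1 point per mouse and the mean and SD beside them. P2ry12, P2ry13 and P2ry14 were lower and P2ry6 higher in stimulated slices of every group, and Adora3 stayed under 1 CPM in all wild-type slices.

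P2ry12, P2ry13 and P2ry14 fell and P2ry6 rose with theta-burst stimulation in all 4 combinations of genotype and treatment. Adora2a and Adora3 rose in both T41B groups, Entpd1 rose in T41B BD10-2 slices, and P2rx4, P2rx7 and Adora1 passed the test in none of the 4. In wild-type vehicle slices 1 member rose and 3 fell, where 8.21% of all genes rose and 4.1% fell. In T41B vehicle slices 3 rose and 3 fell (11.7% and 9.83% of all genes), in wild-type BD10-2 slices 1 rose and 3 fell (6.29% and 2.58%), and in T41B BD10-2 slices 4 rose and 3 fell (13.3% and 9.52%). The members' median log2 changes were -0.12, 0.08, -0.01 and 0.24 in that order, against medians over all genes of -0.01, -0.05, -0.01 and -0.04.

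P2ry12, the ADP receptor that marks resting microglia, stood in wild-type vehicle slices at 14.6, 17, 18.2 and 23.7 CPM after sham and at 4.11, 4.54, 5.59 and 5.67 CPM after stimulation. In T41B vehicle slices it stood at 23.5, 25.2, 27.8 and 31.7 CPM after sham and at 4.88, 5.45, 5.56 and 5.61 CPM after stimulation. The stimulated groups lay well below their sham groups, and the stimulated values of the genotypes covered the same range. In wild-type BD10-2 slices the values were 16.0, 21.5 and 28.9 CPM after sham and 2.6, 4.78 and 6.08 CPM after stimulation. In T41B BD10-2 slices they were 20.8, 25.4, 29.3, 30.1 and 39.1 CPM after sham and 4.27, 6.35, 7.66, 9.06 and 10.8 CPM after stimulation. Over all groups, no stimulated sample (2.6 to 10.8 CPM) reached the lowest sham sample (14.6 CPM). The fitted log2 changes were -1.89 (SE 0.24, edgeR adjusted p = 1.89e-06) in wild-type vehicle, -2.33 (SE 0.24, 2.67e-08) in T41B vehicle, -2.34 (SE 0.28, 9.83e-07) in wild-type BD10-2 and -1.91 (SE 0.21, 3.26e-08) in T41B BD10-2 slices, which are falls of 3.71-fold to 5.06-fold.

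P2ry13, a second ADP receptor of microglia, stood in wild-type vehicle slices at 4.53, 6.29, 6.7 and 8.72 CPM after sham and at 0.43, 0.556, 1.05 and 1.34 CPM after stimulation. T41B vehicle slices held P2ry13 at 9.31, 11.2, 12 and 15.6 CPM after sham and at 0.681, 0.781, 0.88 and 0.909 CPM after stimulation. Sham levels of T41B slices lay above all wild-type ones, and the stimulated levels of the genotypes overlapped. With BD10-2, wild-type slices stood at 6.34, 7.69 and 8.14 CPM after sham and at 0.532, 1.22 and 1.49 CPM after stimulation, and T41B slices at 11.4, 11.8, 13.7, 15.1 and 16.2 against 1.14, 1.63, 1.64, 1.65 and 2.3 CPM. Its log2 changes were -2.92 (SE 0.28, edgeR adjusted p = 1.89e-08) and -3.87 (SE 0.29, 2.19e-10) in wild-type and T41B vehicle slices, and -2.84 (SE 0.31, 2.75e-07) and -2.99 (SE 0.23, 5.2e-11) in wild-type and T41B BD10-2 slices. The fall of 14.6-fold in T41B vehicle slices was the largest of any member in any of the 4 comparisons.

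P2ry14, a receptor for UDP-glucose and other UDP-sugars, was the scarcest member, at 0.478 to 1.44 CPM in sham slices and 0 to 0.548 CPM in stimulated slices. In wild-type vehicle mouse 1513 it had 0 counts after stimulation, which allows a level of up to 0.168 CPM (3 counts, counting error only). The log2 changes ran from -2.82 (SE 0.46, edgeR adjusted p = 5.49e-05) in wild-type vehicle to -1.52 (SE 0.35, 0.00165) in T41B BD10-2 slices, with -1.74 (SE 0.42, 0.00314) and -2.02 (SE 0.45, 0.00323) in T41B vehicle and wild-type BD10-2 slices. The groups overlapped in none of these comparisons, and the call in wild-type BD10-2 slices was lost without mouse 1565 (log2 change -1.90, edgeR adjusted p = 0.0625).

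P2ry6, the UDP receptor, moved the other way. In wild-type vehicle slices it stood at 1.07, 1.15, 1.51 and 1.7 CPM after sham and at 3.41, 3.42, 3.61 and 6.82 CPM after stimulation. T41B vehicle slices held P2ry6 at 2.02, 2.25, 3.36 and 3.75 CPM after sham and at 9.45, 10.6, 14 and 16.4 CPM after stimulation. Stimulated T41B slices were the highest, and sham and stimulated groups did not overlap in either genotype. With BD10-2, wild-type slices stood at 1.24, 1.36 and 1.75 CPM after sham and at 4.42, 5.29 and 5.58 CPM after stimulation, and T41B slices at 2.72, 2.78, 2.95, 3.68 and 4.29 against 12, 13.3, 15.7, 20.8 and 21.6 CPM. P2ry6 changed by 1.66 (SE 0.28, edgeR adjusted p = 8.4e-05) and 2.14 (SE 0.24, 1.44e-07) on the log2 scale in wild-type and T41B vehicle slices, and 1.77 (SE 0.29, 0.000119) and 2.34 (SE 0.22, 1.34e-09) in wild-type and T41B BD10-2 slices. Per length, the ratio of P2ry6 to P2ry12, a pair chosen after their values were seen, averaged 0.0607 to 0.102 in the 4 sham groups and 0.76, 1.14, 2.06 and 2.08 in stimulated wild-type vehicle, wild-type BD10-2, T41B vehicle and T41B BD10-2 slices.

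**Figure D2:**
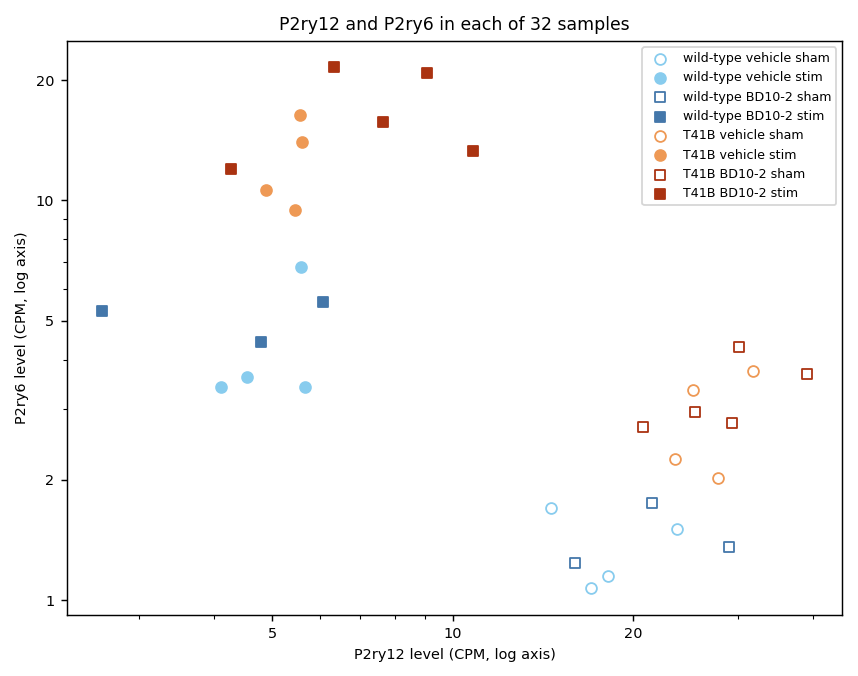
P2ry12 (horizontal, CPM, log axis) against P2ry6 (vertical, CPM, log axis) in each of the 32 samples, with open symbols for sham and filled symbols for stimulated slices. Sham slices lie to the lower right (P2ry12 from 14.6 CPM) and stimulated slices to the upper left (P2ry12 up to 10.8 CPM), with T41B above wild-type slices at each stimulation.

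The ATP-gated channels did not pass the test with stimulation. P2rx4, a channel linked to activated microglia, ran from 6.6 to 12.1 CPM in sham and from 6.33 to 15.5 CPM in stimulated slices. Its log2 changes were -0.09, 0.05, 0.12 and 0.34, and the last, in T41B BD10-2 slices, had an edgeR adjusted p of 0.0716 (0.031 without mouse 1592, and 0.0437 in limma-voom with mouse as a random block). P2rx7, the channel that couples high ATP to the inflammasome, ran from 9.94 to 16.5 CPM in sham and from 9.08 to 16.9 CPM in stimulated slices, with log2 changes of -0.04 to 0.16. The 95% intervals of the 4 P2rx7 changes lay within -0.31 and 0.40.

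Among adenosine receptors, Adora1, which encodes the inhibitory A1 receptor, was the most abundant member, at 169 to 265 CPM in sham and 158 to 223 CPM in stimulated slices. Its fitted changes were -0.10 to -0.19, none of which was called, and its exons share 1162 bases with Mybph on the other strand. Within mice, however, it was lower after stimulation in 13 of 14, by a mean of -0.15 on the log2(CPM + 1) scale (SD 0.10, exact sign-flip test, two-sided, adjusted p = 0.00175).

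Adora2a, the receptor through which adenosine raises cyclic AMP, stood in T41B vehicle slices at 0.585, 0.997, 1.13 and 1.28 CPM after sham and at 2.37, 2.82, 3.06 and 3.97 CPM after stimulation. In T41B BD10-2 slices it stood at 0.747, 0.99, 1.24, 1.27 and 1.44 CPM after sham and at 1.18, 2.51, 2.89, 4.58 and 5.15 CPM after stimulation, the lowest being mouse 1592. The vehicle groups did not overlap, and the BD10-2 groups overlapped through that mouse. The log2 changes were 1.61 (SE 0.34, edgeR adjusted p = 0.00083) and 1.52 (SE 0.30, 0.00029). In wild-type slices Adora2a lay at 0.576 to 1.3 CPM after sham and 0.972 to 1.76 CPM after stimulation with vehicle (0.56, SE 0.36, 0.348), and at 0.758 to 1.25 CPM and 1.74 to 1.87 CPM with BD10-2 (0.81, SE 0.38, 0.197). Adora2a is best known from striatal projection neurons, whose 7 markers summed to 48.0 to 76.6 CPM in all samples. Of those markers, 1 fell and 0 rose with stimulation in T41B vehicle slices (9.83% and 11.7% of all genes), and 1 fell and 1 rose in T41B BD10-2 slices (9.52% and 13.3%).

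Adora3, which encodes the A3 receptor, stood in T41B vehicle slices at 1.44, 1.54, 1.84 and 2.07 CPM after sham and at 3.0, 3.45, 5.01 and 5.73 CPM after stimulation. In T41B BD10-2 slices it stood at 1.73, 1.8, 2.02, 2.14 and 2.81 CPM after sham and at 1.21, 4.01, 4.52, 9.17 and 10.4 CPM after stimulation. Mouse 1592 was again the lowest, and its stimulated slice lay below its sham slice (2.81 CPM), unlike in the other 3 mice of this group with both slices. That stimulated sample is the sum of 2 libraries with Adora3 at 0.392 and 1.9 CPM. The log2 changes were 1.31 (SE 0.39, edgeR adjusted p = 0.0144) with vehicle and 1.46 (SE 0.34, 0.00178) with BD10-2. The BD10-2 call was lost in limma-voom with mouse as a random block (0.96, adjusted p = 0.0537), and the vehicle call was lost without mouse 1551 or 1553 (edgeR adjusted p = 0.0704 to 0.0856). Both are mice with Ttr above 50 CPM, and without all samples above that level the change was 0.96 (edgeR adjusted p = 0.393) for Adora3 and 1.46 (0.0744) for Adora2a. Calls over all genes in that fit were 873 higher and 310 lower, against 2283 and 1914 with all samples. In wild-type slices Adora3 stood at 0.296, 0.566, 0.577 and 0.937 CPM after sham and at 0.324, 0.389, 0.492 and 0.606 CPM after stimulation with vehicle, and at 0.541, 0.748 and 0.835 against 0.62, 0.65 and 0.892 CPM with BD10-2. These wild-type groups overlapped, with log2 changes of -0.38 (SE 0.54) and 0.02 (SE 0.52). Adora3 shares 779 exon bases with Tmigd3 on the same strand, and its level with Tmigd3 added was 4.34 ± 1.23 CPM in stimulated T41B vehicle slices against 4.3 ± 1.29 CPM alone (SD, n = 4).

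Entpd1 encodes CD39, which hydrolyses ATP and ADP at the cell surface. In T41B BD10-2 slices it stood at 13.2, 14.5, 15.1, 18.2 and 18.8 CPM after sham and at 16.2, 21.1, 23.9, 25.2 and 32.7 CPM after stimulation, groups that overlap. The log2 change of 0.58 (SE 0.20, edgeR adjusted p = 0.0397) was lost without any 1 of mice 1557, 1563, 1564, 1570 and 1572 (edgeR adjusted p = 0.0641 to 0.156, log2 change 0.50 to 0.60) and with mouse as a block (0.105, log2 change 0.51). In the other 3 combinations the changes were 0.14 to 0.31 and were not called. In stimulated wild-type vehicle slices Entpd1 was 16.6 and 13.2 CPM in mice 1509 and 1513, the ones with Ttr above 50 CPM, and 8.17 and 4.86 CPM in mice 1522 and 1524.

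Comparing the sham and the stimulated slice of the same mouse, P2ry12, P2ry13 and P2ry14 were lower in 14 of 14 mice and P2ry6 was higher in 14 of 14. The mean differences on the log2(CPM + 1) scale were -1.85 (SD 0.29), -2.35 (SD 0.50), -0.65 (SD 0.25) and 1.61 (SD 0.57), each with the smallest p that the exact two-sided sign-flip test of 14 mice can give, 0.000122, and an adjusted p of 0.000846. Adora2a was higher in 12 of 14 mice, by 0.69 (SD 0.50, exact sign-flip adjusted p = 0.00329). With Adora1, 2 members rose and 4 fell by this test, where 23% of all genes rose and 26.8% fell. Adora3 (0.49, SD 0.81, exact sign-flip adjusted p = 0.0771) was higher in 7 of 8 T41B mice and in 2 of 6 wild-type mice. Without mouse 1592 its adjusted p was 0.034, and that of Entpd1 (0.27, adjusted p = 0.101) was 0.0211 without mouse 1524.

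**Figure D3:**
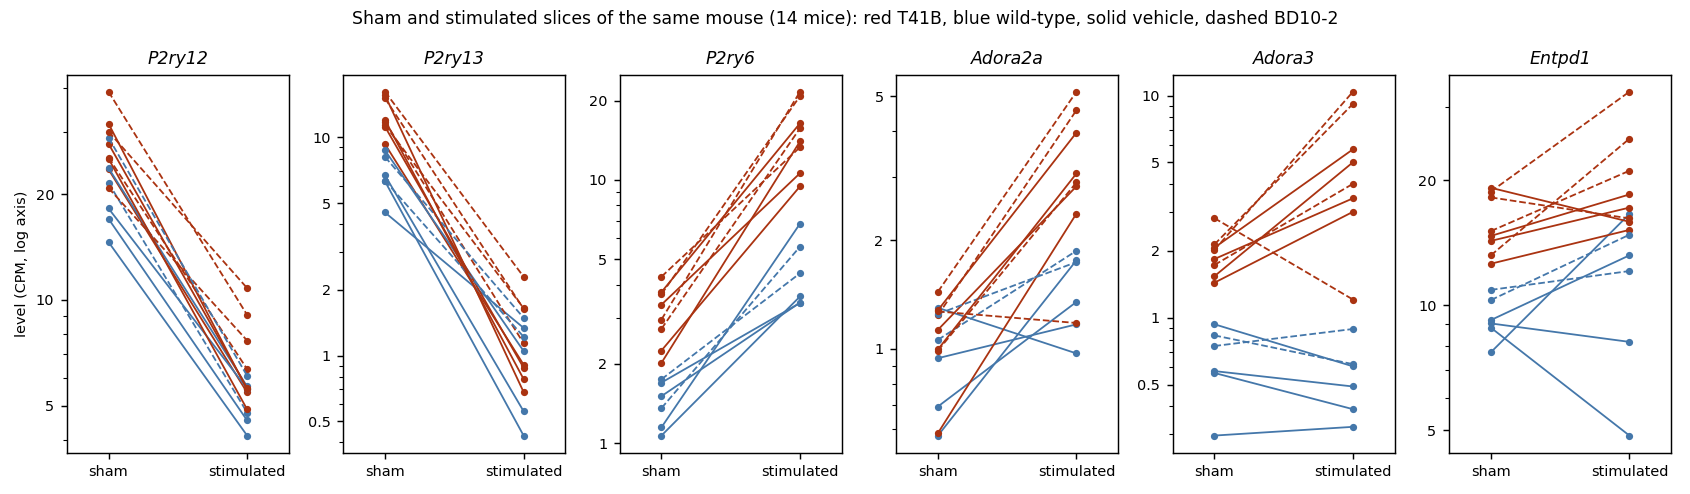
Level in CPM (log axes) of 6 genes in the sham and stimulated slice of each of 14 mice, joined by a line, with T41B in red, wild-type in blue, vehicle solid and BD10-2 dashed. P2ry12 and P2ry13 fell in 14 of 14 mice and P2ry6 rose in 14 of 14, while Adora3 rose in 7 of 8 T41B and 2 of 6 wild-type mice.

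Markers of microglia and macrophages moved beside the ADP receptors. Of the 12 markers, 8 fell in wild-type vehicle (4.1% of all genes), 8 in T41B vehicle (9.83%), 6 in wild-type BD10-2 (2.58%) and 5 in T41B BD10-2 slices (9.52%), and 0 rose in any of them. Their median log2 changes were -0.68, -0.86, -0.77 and -0.29 and the lowest single markers were at -2.16, -2.53, -2.46 and -2.29. Their summed level went from 362 to 484 CPM in sham to 213 to 336 CPM in stimulated wild-type vehicle slices, and from 856 to 1700 to 579 to 877 CPM in T41B vehicle slices. In T41B vehicle slices Cx3cr1, the fractalkine receptor, fell by 2.53 (SE 0.24, edgeR adjusted p = 4.3e-09) and Aif1, which encodes IBA1, by 1.40 (SE 0.24, 6.07e-05) on the log2 scale. The markers' part in the members' changes was not tested.

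Relative to the mean log2(CPM + 1) of those 12 markers, P2ry12 stood at -0.48 ± 0.29 in sham and -1.46 ± 0.29 in stimulated wild-type vehicle slices, and at -1.47 ± 0.23 and -2.74 ± 0.25 in T41B vehicle slices (SD, n = 4 each). P2ry6 went from -3.51 ± 0.33 to -1.67 ± 0.18 in wild-type and from -4.36 ± 0.30 to -1.68 ± 0.22 in T41B vehicle slices on that scale. P2ry14 was not compared on this scale, because at 0 to 1.44 CPM the added 1 limits how far its value can fall. The marker mean itself was 4.74 and 4.03 in sham and stimulated wild-type and 6.27 and 5.41 in T41B vehicle slices, so a gene with a steady level rises on this scale with stimulation and lies lower in T41B mice. P2rx7, which was not called, went from -1.11 ± 0.20 to -0.26 ± 0.28 in wild-type and from -2.59 ± 0.32 to -1.61 ± 0.21 in T41B vehicle slices. These are levels given as a description, with no test.

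Likeness of levels was ranked over the 32 samples among 16192 genes with a mean of at least 1 CPM, and members were left out of the ranking. The genes most like P2ry12 were Cx3cr1 (Pearson r = 0.957), Tmem119 (0.956), Gpr34 (0.955), Nfam1 (0.953) and Slc2a5 (0.953). Within the 16 sham samples these r values were 0.70 to 0.89, and within the 16 stimulated samples 0.55 to 0.78. For P2ry13 they were Slc2a5 (0.975), Nfam1 (0.971), Tmem119 (0.969), Cx3cr1 (0.962) and Dock8 (0.95), with r of 0.86 to 0.96 within sham and 0.41 to 0.66 within stimulated samples. The values over all samples include the common step between sham and stimulated samples. Nearest to Adora2a were Mxd1 (0.937), Tnip3 (0.926), Malt1 (0.923), D1Ertd622e (0.922) and Prkx (0.922), with r of 0.90 to 0.92 within stimulated samples and 0.18 to 0.71 within sham samples. These correlations are descriptions over samples that share mice, libraries and groups.

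T41B slices had higher levels of several members than wild-type slices, and no member was called lower. With vehicle, P2ry13, P2ry6, Adora3 and Entpd1 were higher in sham slices (4 members, where 5.0% of all genes were higher and 1.24% lower) and P2ry6, Adora2a and Adora3 in stimulated slices (3 members, against 4.74% and 1.05%). With BD10-2, P2ry13, P2ry6 and Adora3 were higher in sham slices (3 members, against 4.31% and 1.14%) and P2ry12, P2ry6, P2rx4, Adora3 and Entpd1 in stimulated slices (5 members, against 8.19% and 2.36%). P2ry6 and Adora3 were called in all 4. Averaged over the 4 comparisons, 7 members were higher and 0 lower, where 16.5% of all genes were higher and 15.1% lower. The members' median in that average was 0.53, against -0.01 over all genes. In the average, Adora2a lost its call in limma-voom with mouse as a random block (0.48, adjusted p = 0.158) and with batch as a covariate (0.46, edgeR adjusted p = 0.141). The edgeR fit does not account for the slices that share a mouse.

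Adora3 had the largest genotype difference. Its log2 difference was 1.56 (SE 0.47, edgeR adjusted p = 0.0422) in sham and 3.25 (SE 0.45, 2.2e-05) in stimulated vehicle slices, and 1.55 (SE 0.45, 0.0369) and 2.99 (SE 0.45, 3.07e-05) with BD10-2. The largest of these was 9.51-fold, and T41B and wild-type groups overlapped in none of the 4. P2ry6 differed by 1.08 (SE 0.28, 0.0195) and 1.56 (SE 0.24, 6.7e-05) with vehicle and by 1.14 (SE 0.28, 0.0107) and 1.71 (SE 0.25, 1.88e-05) with BD10-2, in sham and stimulated slices, again without overlap. Both genes were higher in T41B mice in all 7 comparisons that could be made within a batch label, by 0.27 to 1.3 for P2ry6 and 0.61 to 1.59 for Adora3 on the log2(CPM + 1) scale. P2rx4 (0.1 to 0.56) and Entpd1 (0.48 to 1.64) were also higher in all 7. These comparisons come from 4 batch labels, share mice between sham and stimulated slices, hold 1 or 2 mice a side and have no test. With batch as a covariate the sham calls of Adora3 were lost with vehicle (1.34, edgeR adjusted p = 0.313) and with BD10-2 (1.29, 0.118), as was that of P2ry6 with vehicle (0.70, 0.393).

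P2ry13 was higher in T41B sham slices, by 0.88 (SE 0.23, edgeR adjusted p = 0.0204) with vehicle and 0.89 (SE 0.24, 0.0243) with BD10-2, and differed by -0.07 (SE 0.34) and 0.74 (SE 0.31, 0.132) in stimulated slices. The vehicle sham call of P2ry13 was lost with batch as a covariate (0.91, edgeR adjusted p = 0.17) and with only the groups compared (0.88, 0.0517). P2ry12 was called in stimulated BD10-2 slices (0.82, SE 0.26, 0.0375) and in the average (0.47, SE 0.12, 0.00342). The groups in stimulated BD10-2 slices overlapped, and that call was lost without mouse 1563, 1565, 1586 or 1592 (0.50, adjusted p = 0.289, without 1586), with batch as a covariate (0.68, 0.172) and with only the groups compared (0.80, 0.178). In sham vehicle slices its difference was 0.56 (SE 0.22, 0.14). Within batch labels P2ry13 was higher in T41B mice in 6 of 7 comparisons and P2ry12 in 5 of 7. The average call for P2ry12 was lost with batch as a covariate (0.45, edgeR adjusted p = 0.0727) and without the samples above 50 CPM of Ttr (0.44, 0.0531).

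Entpd1 was called higher in T41B mice in sham vehicle slices (0.81, SE 0.24, edgeR adjusted p = 0.0392) and stimulated BD10-2 slices (1.02, SE 0.24, 0.00476). Its differences in sham BD10-2 slices (0.61, SE 0.24, 0.156) and stimulated vehicle slices (0.64, SE 0.23, 0.117) were not called. Without the samples above 50 CPM of Ttr, the difference in stimulated vehicle slices was 1.45 (0.00734). Entpd1 was also called there with batch as a covariate (1.02, edgeR adjusted p = 0.0362) and without mouse 1509 (0.93, 0.0175). In sham BD10-2 slices it was called with only the groups compared (0.61, 0.0113). The call in stimulated BD10-2 slices was lost without mouse 1586 (0.81, 0.0688). Adora2a differed by 1.22 (SE 0.33, 0.0209) in stimulated vehicle slices, from 0.972 to 1.76 CPM in wild-type and 2.37 to 3.97 CPM in T41B mice, without overlap. P2rx4 differed by 0.49 (SE 0.16, 0.0447) in stimulated BD10-2 slices and by 0.37 (SE 0.08, 0.000614) in the average. The groups in stimulated BD10-2 slices overlapped, and that call was lost without any 1 of mice 1563, 1564, 1565, 1572 and 1586 (0.38 to 0.48, edgeR adjusted p = 0.065 to 0.284). It was also lost with batch as a covariate (0.36, 0.164), only the groups compared (0.49, 0.182), library totals (0.45, 0.0805), no filter on low counts (0.47, 0.0933) and the first library of each same-label pair (0.51, 0.0533). P2rx7 (0.16, SE 0.06, 0.0535), P2ry14 (0.26, SE 0.21, 0.375) and Adora1 (-0.09, SE 0.05, 0.234) were not called in the average. P2rx7 was called there by DESeq2 (0.17, adjusted p = 0.0314), with RLE size factors (0.04), with the first library of each same-label pair (0.0383), without the library of lowest Thy1 (0.0438) and without any 1 of mice 1524, 1553, 1563, 1564 and 1571 (0.0261 to 0.0456).

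Several genotype calls were lost without single mice or in another fit, mostly with differences of similar size. In limma-voom with mouse as a random block, 1 call was left in sham vehicle slices, 1 in sham BD10-2 slices and 2 in stimulated vehicle slices, the lost ones being P2ry6 (log2 difference 1.06, adjusted p = 0.139), Adora3 (1.6, 0.278) and Entpd1 (0.79, 0.105), then P2ry6 (0.99, 0.111) and Adora3 (1.49, 0.24), then Adora2a (1.23, 0.0573). Over all genes that fit called 720 higher and 272 lower in sham vehicle, 749 and 277 in sham BD10-2 and 840 and 157 in stimulated vehicle slices, against 973 and 242, 839 and 223, and 923 and 205 in edgeR. In sham vehicle slices the 4 calls became 0 without mouse 1509 or 1551, 1 without 1522 or 1579 and 2 without 1553, and also 0 without the samples above 50 CPM of Ttr. Calls over all genes were 973 higher and 242 lower with all samples, 546 and 60 without 1509, 514 and 42 without 1551, 735 and 130 without 1522, 951 and 271 without 1579, 654 and 55 without 1553, and 250 and 2 without the Ttr samples. Where they were lost without 1 mouse, the sham vehicle differences were 0.73 to 0.89 for P2ry13, 0.91 to 0.99 for P2ry6, 1.33 to 1.61 for Adora3 and 0.67 to 0.89 for Entpd1. In sham BD10-2 slices the 3 calls became 0 without mouse 1571 or 1590 and 1 without 1565, and in stimulated BD10-2 slices the 5 became 2 without 1586 and 3 without 1565. Over all genes, calls in sham BD10-2 slices went from 839 higher and 223 lower to 543 and 54 without 1571, 429 and 55 without 1590 and 488 and 89 without 1565. In stimulated BD10-2 slices they went from 1596 and 460 to 1225 and 445 without 1586 and 991 and 64 without 1565. Adora2a in stimulated vehicle slices was lost without mouse 1509, 1522 or 1551 (edgeR adjusted p = 0.0739 to 0.0993). Without the samples above 50 CPM of Ttr, P2ry6 (log2 difference 1.0, edgeR adjusted p = 0.12) and Adora2a (1.24, 0.252) were also lost in stimulated vehicle slices, where calls over all genes went to 222 higher and 8 lower. Adora3 in both groups of stimulated slices and P2ry6 in stimulated BD10-2 slices kept their calls under all 19 alternatives run for each.

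All 12 markers of microglia and macrophages were called higher in T41B sham slices with vehicle and with BD10-2 (5.0% and 4.31% of all genes), with median log2 differences of 1.58 and 1.54. In stimulated slices 10 and 12 were higher (4.74% and 8.19% of all genes), with medians of 1.45 and 1.77. Tyrobp, a signalling adaptor of myeloid receptors, differed by 2.27 (SE 0.26, edgeR adjusted p = 6.06e-07) and C1qa, a complement subunit, by 2.08 (SE 0.22, 2.83e-07) in sham vehicle slices. Of 6 astrocyte markers 2 were higher there (median of the 6 0.31), Gfap by 2.06 (SE 0.19, 4.4e-08) and Aqp4 by 0.65 (SE 0.19, 0.031). Choroid plexus Ttr was called higher in T41B sham vehicle slices (8.53, SE 2.43, 0.0313), through mice 1551 and 1553. In the average of the genotype comparisons, 2 of 2 tested T cell markers (log2 difference 1.64 to 3.23) and 2 of 4 tested perivascular macrophage markers were higher (16.5% of all genes). In stimulated BD10-2 slices 1 and 2 of them were higher, and none was called in the other genotype comparisons. The part of all these markers in the members' genotype differences was not tested.

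**Figure D4:**
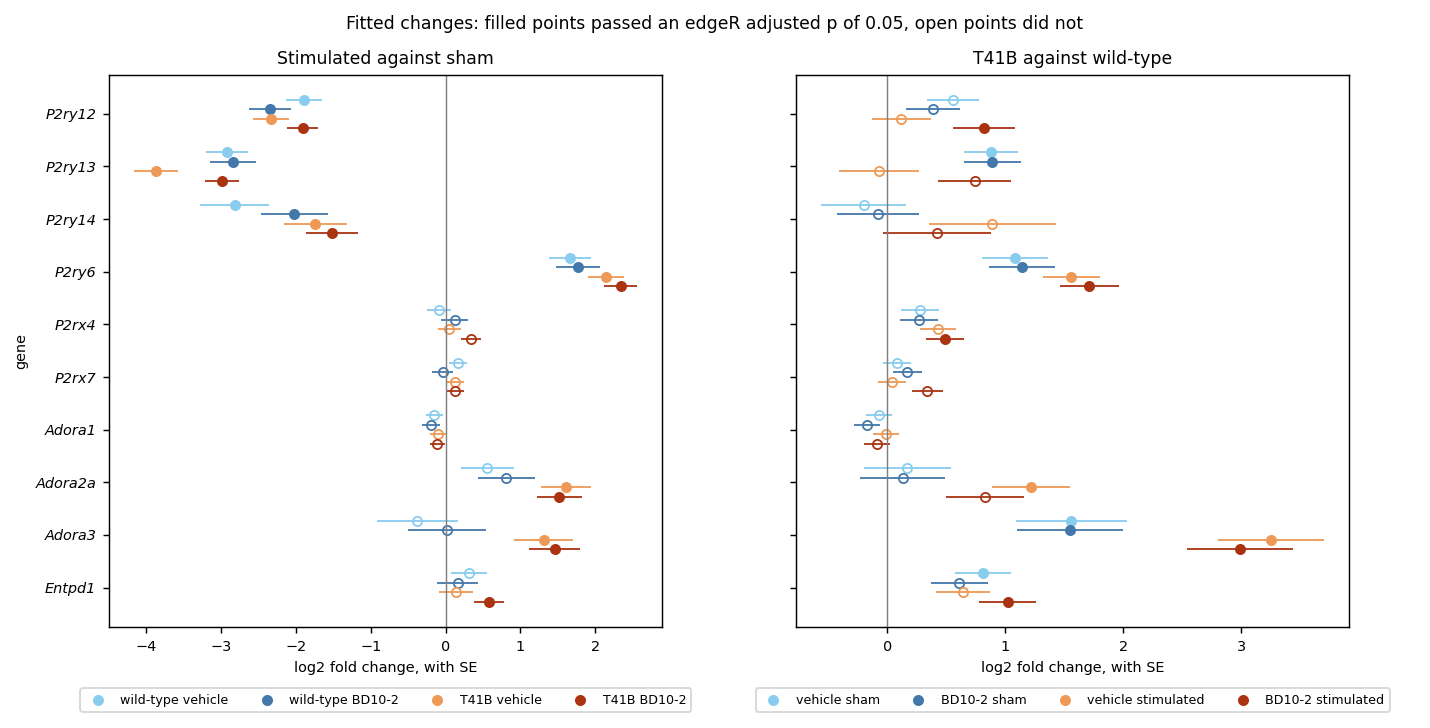
Fitted log2 fold changes with SE for the 10 genes, stimulated against sham on the left and T41B against wild-type on the right, with filled points where the edgeR adjusted p was under 0.05. P2ry12, P2ry13 and P2ry14 lie left of 0 in all 4 stimulation comparisons, and Adora3 reaches 3.25 in stimulated vehicle slices on the right.

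Whether stimulation acted differently in the genotypes was tested as an interaction. No member and no gene was called with vehicle or with BD10-2 (0.0% of all genes in each), and 3 and 1 members, and 1683 and 846 of all genes, had an unadjusted p under 0.05. DESeq2 called 4 genes higher and 0 lower with vehicle, and 19 higher and 1 lower with BD10-2, and with mouse as a fixed block edgeR called 1 gene higher and 2 lower with vehicle, no member among them. Without mouse 1592, edgeR called 76 genes higher and 3 lower with BD10-2, again no member. With vehicle the members under that p were Adora3 (log2 difference 1.69, SE 0.67, edgeR adjusted p = 0.511), Adora2a (1.05, SE 0.50, 0.569) and P2ry13 (-0.95, SE 0.41, 0.529). With BD10-2, Adora3 differed by 1.45 (SE 0.62, 1.0). The calls of Adora2a and Adora3 in T41B and not in wild-type slices are therefore not shown to differ between the genotypes.

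BD10-2 against vehicle called no member and no gene in sham or stimulated slices of either genotype, nor in their average (0.0% of all genes in each of the 5 comparisons). Unadjusted p under 0.05 was reached by 0 members in wild-type sham, wild-type stimulated and T41B sham slices and by 3 in T41B stimulated slices, and by 374, 1093, 431 and 759 of all genes. DESeq2 called 0 genes in wild-type sham, T41B sham and T41B stimulated slices, and 1 higher and 24 lower in wild-type stimulated slices, with 6 lower in the average, where 1249 genes had an unadjusted p under 0.05 in edgeR. The 3 members were P2ry13 (log2 difference 1.06, SE 0.30, edgeR adjusted p = 0.805), Entpd1 (0.51, SE 0.22, 1.0) and P2ry12 (0.52, SE 0.23, 1.0). In the same comparison the 12 markers of microglia and macrophages had log2 differences of 0.36 to 0.76 (median 0.47) and the 20 microglial sensing receptors of 0.18 to 0.86 (median 0.46), with 0 called in either list, and their part in the members' differences was not tested. P2ry13 stood at 0.681 to 0.909 CPM with vehicle and 1.14 to 2.3 CPM with BD10-2 in stimulated T41B slices, groups that do not overlap. In the average, the 95% interval of P2ry12 was -0.06 to 0.41 and that of Adora1 -0.13 to 0.08. The stimulation effect under BD10-2 minus that under vehicle was called for no member and no gene in T41B or wild-type mice (0.0% of all genes), with 2.7% and 1.73% of genes at an unadjusted p under 0.05 and 1 and 0 genes called by DESeq2. Each batch label holds 1 treatment, so batch and treatment cannot be told apart.

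Other genes of purine signalling were read from lists. Of 10 further P2 and adenosine receptors, 7 were tested and 1 rose in each stimulation comparison, the ATP and UTP receptor P2ry2, where 8.21%, 11.7%, 6.29% and 13.3% of all genes rose in wild-type vehicle, T41B vehicle, wild-type BD10-2 and T41B BD10-2 slices. In T41B vehicle slices it went from 2.76 ± 0.58 to 14.4 ± 1.99 CPM (SD, n = 4 each), a log2 change of 2.39 (SE 0.23, edgeR adjusted p = 7.97e-09), while the median of the 7 was -0.34. Of 20 genes of nucleotide breakdown and adenosine handling, 17 were tested, and 2 rose and 0 fell in that comparison, where 11.7% of all genes rose. These were Pnp, purine nucleoside phosphorylase, from 21.9 ± 6.99 to 84.3 ± 17.7 CPM (1.94, SE 0.23, 2.34e-07), and Ada, adenosine deaminase, from 0.67 ± 0.173 to 1.61 ± 0.514 CPM (1.26, SE 0.34, 0.0076). Pnp was also higher in T41B than wild-type sham vehicle slices (0.97, SE 0.24, 0.0108), the only gene of that list called there, where 5.0% of all genes were higher.

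Among 5 nucleotide release genes, 2 rose in T41B vehicle slices with stimulation, where 11.7% of all genes rose and 9.83% fell. These 2 were the connexin Gja1 (0.57, SE 0.11, edgeR adjusted p = 0.000409) and the pannexin Panx1 (0.37, SE 0.11, 0.0131). Of 13 effectors of purine receptors, 2 rose and 3 fell in that comparison (11.7% and 9.83% of all genes). Il1b, the cytokine released after P2X7 activation, went from 1.88 ± 1.71 to 356 ± 72.5 CPM (7.53, SE 0.49, edgeR adjusted p = 9.58e-12), and Nlrp3, the inflammasome sensor, from 26.6 ± 6.97 to 70.6 ± 17.5 CPM (SD, n = 4 each). The inflammasome adaptor Pycard fell from 3.32 ± 0.607 to 0.435 ± 0.0303 CPM (-2.91, SE 0.28, edgeR adjusted p = 7.94e-09). The G protein subunit Gnal fell by 0.36 (SE 0.09, 0.00318). In T41B against wild-type sham vehicle slices, 3 of the 13 were higher (5.0% of all genes), among them Pycard (1.47, SE 0.25, 0.000283) and Nlrp3 (1.46, SE 0.19, 5.61e-06).

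Of 20 other microglial sensing receptors and adaptors, 4 rose and 8 fell with stimulation in wild-type vehicle slices (8.21% and 4.1% of all genes) and 4 and 9 in T41B vehicle slices (11.7% and 9.83%). With BD10-2, 4 rose and 8 fell in wild-type slices (6.29% and 2.58%), and 6 and 8 in T41B slices (13.3% and 9.52%). With vehicle in T41B mice, the largest rises were those of Gpr84, a medium-chain fatty acid receptor (2.07, SE 0.19, edgeR adjusted p = 4.79e-09), and C5ar1, the C5a receptor (1.73, SE 0.18, 1.83e-08). The largest falls were those of Tmem119, a marker of resident microglia, from 25.1 ± 5.32 to 2.22 ± 0.547 CPM (-3.50, SE 0.31, 1.57e-09), and Gpr34, a lysophosphatidylserine receptor (-3.25, SE 0.45, 3.72e-06). Between genotypes, 18 of the 20 were higher in T41B sham vehicle slices (5.0% of all genes), led by Clec7a (4.26, SE 0.41, 8.38e-08) and Tlr2 (3.05, SE 0.29, 8.38e-08), with a median of 1.33. The 10 purine members had a median of 0.42 in that comparison, against 0.0 over all genes.

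Markers of other cell types gave the following counts for stimulation in T41B vehicle slices, where 11.7% of all genes rose and 9.83% fell. Of 6 astrocyte markers 3 rose, led by Aqp4 (0.64, SE 0.18, edgeR adjusted p = 0.0124) and Slc1a3 (0.39, SE 0.11, 0.00875). Mog fell among 6 oligodendrocyte markers (-0.65, SE 0.23, 0.0397), Neurod6 among 7 markers of hippocampal neurons (-0.60, SE 0.14, 0.002) and Drd2 among 7 striatal ones (-1.31, SE 0.42, 0.0244). Of 6 endothelial markers Pecam1 rose (1.37, SE 0.35, 0.00503) and Slco1a4 fell (-2.66, SE 0.36, 2.86e-06). In the other stimulation comparisons 3 of those 6 fell and 0 rose with wild-type vehicle (median -0.66), 2 fell and 0 rose with wild-type BD10-2 (median -0.56), and 3 fell and 1 rose with T41B BD10-2 (median -0.29). Over all genes 4.1%, 2.58% and 9.52% fell and 8.21%, 6.29% and 13.3% rose in that order. None of the 4 tested perivascular macrophage markers was called in any stimulation comparison. Of the 2 tested T cell markers, 1 rose in T41B BD10-2 slices (log2 change 1.45), and neither was called in the other stimulation comparisons. All 9 choroid plexus markers rose in wild-type vehicle slices with stimulation, through mice 1509 and 1513, and 0 of 9 in T41B vehicle slices, and without the Ttr samples the wild-type vehicle comparison still called 4 members.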

How the data were processed

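Transcript levels were measured by RNA sequencing of 36 libraries of hippocampal slices from 18 mice, prepared after ribosomal depletion with a stranded kit (200 ng input), per the labels' protocols. The deposited table holds expected counts from RSEM for each gene, estimates that need not be whole. Per the submitters' processing notes, the tools were cutadapt 1.8.1, STAR 2.7.6a, RSEM 1.3.1, featureCounts 1.6 and SAMtools 1.11 and the build GRCm38.p6 (mm10), with no role given for each. The annotation release and the strand setting are not given in the sources used here. Symbols were matched for 55154 of 55421 identifiers, and 0 columns belonged to other samples.

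Counts were rounded to whole numbers, and 4 pairs of libraries with equal mouse and stimulation labels were added, which left 32 samples in 8 groups. Genes were filtered with filterByExpr (minimum count 10), scaled by TMM (factors 0.91 to 1.063) and tested with edgeR 4.0.16 in R 4.3.3 by the quasi-likelihood F test in 1 fit with a coefficient per group, with Benjamini-Hochberg adjustment over all 19478 genes. CPM values and their log2(CPM + 1) were computed from the deposited counts. An exact sign-flip test over mice with both slices was run on all genes and adjusted likewise. The labels do not say whether replicate mice shared litters or days, and intervals are the log2 fold change ± 1.96 SE. The fit was also run on simulated data, with the outcome not reported here.

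Slices were paired by the mouse number that the labels give. Deviations from the group means correlated by 0.187 on average over the 14 pairs of slices of 1 mouse (0.0138 to 0.379), and by -0.0503 over 52 pairs of different mice.

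The 10 members and all gene lists were chosen with earlier results of these data known. Besides the members, the rule named Thy1 and App, up to 2 genes per list and direction with the largest called change in 2 comparisons (stimulation in T41B vehicle slices, genotype in sham vehicle slices), and the 5 genes outside the members most like P2ry12, P2ry13 and Adora2a. Alternatives were DESeq2 1.42.0, other scalings and filters, mouse as a block, limma-voom (limma 3.58.1), batch as a covariate, only the groups compared, single libraries, and each mouse left out. Leaving out the library of lowest Thy1 and the samples above 50 CPM of Ttr was chosen after seeing the data.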

Additional observations from a re-analysis of the deposited data

Results flagged for a closer look

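In groups of 4 or 5 mice, a sample was picked out when its gap to the nearest other sample took up most of the range of its group. Of 60 groups of member levels checked, 2 had such a sample, and chance alone flags about 1 in 20 groups. P2ry6 was 6.82 CPM in the stimulated slice of wild-type vehicle mouse 1524, against 3.41 to 3.61 CPM in the other 3 mice. P2rx4 was 13.1 CPM in the stimulated slice of T41B vehicle mouse 1551, against 9.52 to 9.83 CPM in the other 3.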

How the results depend on the processing

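For 49 called results of single members, 835 of 927 alternative values kept direction and call, 92 kept the direction and lost the call, and 0 reversed. Of 141 results that were not called, 21 of 2761 alternative values were called. The number of members called for T41B against wild-type changed most. In sham vehicle slices (4 called) it was 2 with library totals only, 2 with the first library of each same-label pair, 2 with only the groups compared, 1 with batch as a covariate, 1 with limma-voom and a random replicate block, 0 without the samples above 50 CPM of Ttr, and 0 to 4 with 1 mouse left out. In sham BD10-2 slices (3 called) it was 1 with limma-voom and a random replicate block and 0 to 3 with 1 mouse left out. In stimulated BD10-2 slices (5 called) it was 3 with the first library of each pair, 3 with only the groups compared, 3 with batch as a covariate, and 2 to 5 with 1 mouse left out. In stimulated vehicle slices (3 called) it was 2 to 4 under all alternatives. Over all genes, the sham vehicle calls (973 higher, 242 lower) were 846 and 258 with library totals, 796 and 144 with the first library, 524 and 12 with only the groups compared and 331 and 21 with batch. The stimulated BD10-2 calls (1596 and 460) were 1274 and 226, 1090 and 121, and 1342 and 437 with the last 3 of these. The cause was not tested. With mouse as a fixed block, the stimulation comparisons called 4, 6, 4 and 6 members in wild-type vehicle, T41B vehicle, wild-type BD10-2 and T41B BD10-2 slices, against 4, 6, 4 and 7, and that fit changed no stimulation call of a member other than that of Entpd1. Over all genes it called 2253 higher and 1653 lower in wild-type vehicle slices (1599 and 798 without the block), 2861 and 2882 in T41B vehicle (2283 and 1914), 913 and 373 in wild-type BD10-2 (1225 and 502) and 2629 and 2027 in T41B BD10-2 slices (2598 and 1855). P2ry14, Adora2a and Adora3 rest on few counts, which limits how small a change could be detected.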
